A study of Mus musculus with 2 samples.

Results

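Regions of PHLPP1 signal at odorant and pheromone receptor genes were examined in mouse alveolar macrophages. They were the autosomal regions in each library's deposited list that lay within 1 kb of either end of a protein-coding gene whose symbol starts with Olfr, Vmn1r or Vmn2r, with gene positions from RefSeq (GRCm38.p6, the assembly behind mm10). This gave 370 of 225427 autosomal regions in the IL-4 library and 293 of 165089 in the untreated library. The 3 families held 1454 of 20560 autosomal protein-coding genes, made up of 1103 Olfr, 229 Vmn1r and 122 Vmn2r genes. A gene with such a region is called marked. Every member region lay within 1 kb of exactly 1 receptor gene.

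The study used CUT&Tag, a method that tethers a transposase to an antibody's target in permeabilised cells, so that sequencing adapters are inserted in the DNA around it. The antibody was against PHLPP1, a phosphatase best known for acting on AKT. Primary alveolar macrophages, the resident phagocytes of the lung airspaces, were collected from lavage fluid of wild-type (WT) mice. One library came from cells given IL-4 at 20 ng/ml for 4 h and 1 from untreated cells (UT), and both were made with the same antibody and kit. The labels give no strain, sex or age, and do not say whether animals were pooled. With 1 library a group there were no replicates, so no difference below could be tested and each one holds for these 2 libraries. A library with a control antibody was not analysed here, and background cutting by the transposase cannot be told apart from PHLPP1 signal. Of 20 alveolar macrophage marker genes in the gene table, 19 were marked in the IL-4 library and 17 in the untreated library, with Chil3, which codes for a chitinase-like protein, unmarked in both. Of all autosomal protein-coding genes, 73.7% and 60.4% were marked, and a region is not a transcript, so this is a weak check of the labelled cell type.

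Olfr genes code for the odorant receptors of the nose, Vmn1r and Vmn2r genes for the pheromone receptors of the vomeronasal organ. All are G protein-coupled receptors. Each sensory neuron transcribes a single odorant receptor allele, and the others lie in compact heterochromatin. The genes sit in long tandem arrays made by repeated duplication, which leaves many near-identical copies. An odorant receptor is coded by a single exon, and many gene models hold little more than that exon, whereas Vmn2r genes have several exons spread over a long locus. Macrophages are not olfactory neurons, although a few odorant receptors are known outside the nose.

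The 250 bases before the start of 5 genes are printed to show the sequence under strong, moderate and absent regions. They are RefSeq sequences from GRCm38.p6, written 5′ to 3′ along the gene, with each CpG in capitals. Vmn2r29 carried the receptor-only region of highest fold in the IL-4 library. Olfr110 had one of the largest differences between the libraries. Olfr544 is a receptor for azelaic acid described outside the nose. Olfr16 and Olfr17, odorant receptors much studied in olfactory neurons, were unmarked.
Vmn2r29, chr7:7278290-7278539, minus strand: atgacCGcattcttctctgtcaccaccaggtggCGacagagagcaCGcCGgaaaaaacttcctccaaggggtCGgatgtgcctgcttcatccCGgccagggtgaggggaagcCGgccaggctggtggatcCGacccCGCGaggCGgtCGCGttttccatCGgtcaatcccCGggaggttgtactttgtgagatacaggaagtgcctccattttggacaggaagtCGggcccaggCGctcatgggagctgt
Olfr110, chr17:37492218-37492467, plus strand: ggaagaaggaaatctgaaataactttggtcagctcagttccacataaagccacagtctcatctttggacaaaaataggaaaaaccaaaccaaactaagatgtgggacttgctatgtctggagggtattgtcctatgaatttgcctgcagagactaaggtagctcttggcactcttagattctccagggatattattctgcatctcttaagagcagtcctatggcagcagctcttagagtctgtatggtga
Olfr544, chr7:102488308-102488557, minus strand: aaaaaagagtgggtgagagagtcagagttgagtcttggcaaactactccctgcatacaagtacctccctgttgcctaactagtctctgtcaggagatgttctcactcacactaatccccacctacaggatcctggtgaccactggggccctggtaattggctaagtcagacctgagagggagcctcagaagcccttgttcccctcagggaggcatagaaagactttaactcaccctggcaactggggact
Olfr16, chr1:172956518-172956767, plus strand: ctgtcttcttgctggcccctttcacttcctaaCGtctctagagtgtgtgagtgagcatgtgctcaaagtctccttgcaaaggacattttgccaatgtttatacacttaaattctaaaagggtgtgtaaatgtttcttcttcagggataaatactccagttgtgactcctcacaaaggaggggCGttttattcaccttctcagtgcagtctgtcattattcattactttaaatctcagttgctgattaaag
Olfr17, chr7:107097217-107097466, plus strand: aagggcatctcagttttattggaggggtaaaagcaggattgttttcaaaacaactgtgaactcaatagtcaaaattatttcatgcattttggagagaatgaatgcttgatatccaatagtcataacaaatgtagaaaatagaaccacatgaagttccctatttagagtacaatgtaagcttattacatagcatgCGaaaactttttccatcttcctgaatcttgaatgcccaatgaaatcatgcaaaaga
All 250 bases before Vmn2r29 lay under its region in both libraries, and they held 17 CpGs at 60.8% G+C. Before Olfr110, 213 bases lay under the IL-4 region and 159 under the untreated one, with no CpG and 42.4% G+C. Before Olfr544 the numbers were 166 bases and 81 bases, again with no CpG, at 51.6% G+C. No base before Olfr16 (40.4% G+C) or Olfr17 (33.6% G+C) lay under a region. Of the 3 marked genes shown, only Vmn2r29 held a CpG in this stretch.

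Receptor genes were marked far less often than other genes in both libraries. In the IL-4 library 293 receptor genes (20.2%, 95% interval 18.1 to 22.3) were marked, against 73.7% of all autosomal protein-coding genes. In the untreated library 251 (17.3%, 15.3 to 19.3) were marked, against 60.4% of all. Intervals of shares are exact Clopper-Pearson intervals and cover counting error only. Outside the 3 families, 77.8% of 19106 genes were marked with IL-4 and 63.7% without. The families differed among themselves. Of the Olfr genes, 266 (24.1%, 21.6 to 26.7) were marked in the IL-4 library and 221 (20.0%, 17.7 to 22.5) in the untreated library. Of the Vmn1r genes, 15 (6.55%, 3.71 to 10.6) were marked in each library. Of the Vmn2r genes, 12 (9.84%, 5.19 to 16.6) were marked with IL-4 and 15 (12.3%, 7.05 to 19.5) without. The Vmn1r interval lies below the Olfr interval in each library. The Vmn2r interval lies below it with IL-4 and overlaps it without.

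**Figure D1:**
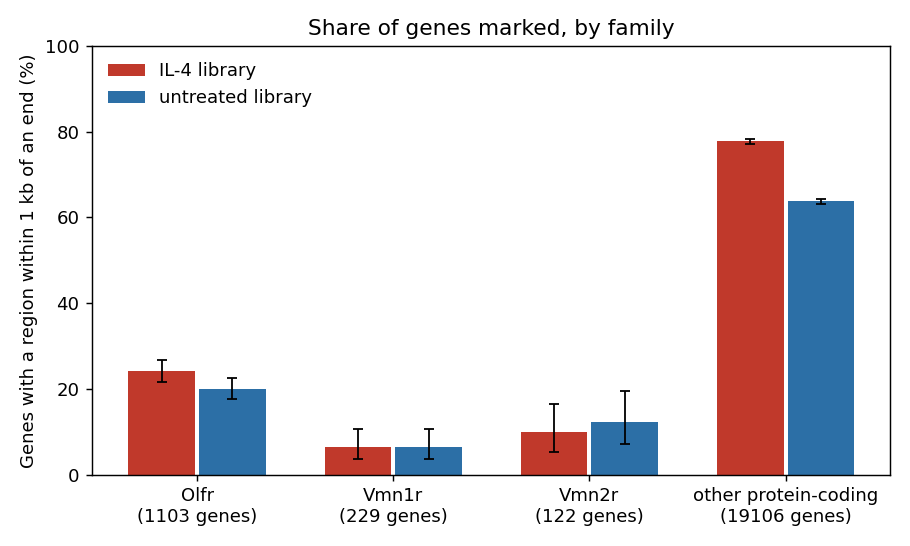
Share of genes with a region within 1 kb of an end (y axis, percent) for the 3 receptor families and all other autosomal protein-coding genes, in the IL-4 library (red) and the untreated library (blue). Bars are shares of the genes named below each pair and error bars are exact 95% intervals for counting error, and the receptor bars lie between 6.55% and 24.1% against 77.8% and 63.7% for other genes.

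Both libraries marked 176 receptor genes (12.1%), against 57.2% of all protein-coding genes. The IL-4 library alone marked 117 (8.05%, 6.70 to 9.57), where 16.5% of all genes were marked so. The untreated library alone marked 75 (5.16%, 4.08 to 6.42), where 3.21% of all genes were. With any region counted, the receptor genes were therefore below the share of all genes in the first class and above it in the second. Only a gene unmarked with IL-4 can enter the second class, and 20.2% of receptor genes but 73.7% of all genes were marked with IL-4. The higher receptor share therefore does not give the rate among genes left unmarked with IL-4. Of the genes of 1 library only, 106 Olfr, 9 Vmn1r and 2 Vmn2r genes belonged to IL-4, and 61, 9 and 5 to the untreated cells. The ratio of receptor genes marked, IL-4 over untreated, was 1.17. It turned round to 0.873, with 219 against 251 genes, when the IL-4 list was cut to the length of the untreated list. It was 0.966, with 510 against 528 genes, when the window was widened to 5 kb.

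Strong regions were rare at receptor genes. The authors' −log10 q is the significance, adjusted for many tests, of a region's height against the background of its own library. It is not a measure of that height. With only regions of −log10 q 5 or more counted, 98 receptor genes (6.74%) were marked with IL-4 and 32 (2.2%) without, against 54.1% and 34.6% of all protein-coding genes. These comprised 88 Olfr, 3 Vmn1r and 7 Vmn2r genes with IL-4, and 24, 3 and 5 without. By this limit 73 (5.02%) were marked with IL-4 only (20.2% of all genes were) and 7 (0.481%) in the untreated library only (0.691% of all genes). Receptor genes were thus below the share of all genes in both classes. The authors' fold is the height at the summit over that background. At a fold of at least 3, 27 receptor genes were marked with IL-4 and 9 without, against 42% and 27.5% of all genes. Of these, 18 (1.24% of receptor genes) were past that fold with IL-4 only (14.9% of all genes) and none in the untreated library only (0.472% of all genes). Of the regions themselves, 111 of 370 with IL-4 and 34 of 293 without had a −log10 q of 5 or more, a ratio of 3.26 (2.22 to 4.79, from counting error). Over all autosomal regions 30.9% and 17.4% passed, and the ratio of their numbers was 2.42. The limit was passed at a lower fold in the IL-4 library: the Olfr558 region of fold 2.47 had a −log10 q of 5.01 there, while the Vmn2r117 region of fold 2.62 in the untreated library had 4.85.

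The typical member region was as weak as the typical region anywhere on the autosomes. Its median fold was 2.19 in the IL-4 library and 2.15 in the untreated library, the same as over all autosomal regions. Regions at the ends of other protein-coding genes had medians of 2.61 and 2.55. The interquartile range of member regions ran between folds of 2.02 and 2.49 with IL-4 and between 2.01 and 2.35 without. Member regions were 341 bp wide at the median with IL-4 and 303 bp without, against 449 bp and 414 bp at other gene ends. At a fold of 3 or more, 29 member regions stood in the IL-4 list and 9 in the untreated list, against backgrounds of 12.9% and 9.08% of all regions. Per length of DNA, receptor gene windows held 74.5 summits per Mb with IL-4 and 59.1 without. The autosomes as a whole held 93.8 and 68.7, and the windows of other genes 253 and 183. In the rest of the receptor clusters, away from the receptor windows but with ends of other genes included, the density was 49.6 and 45.5. Counting all summits, receptor gene ends thus lay below the autosomal mean and above the rest of their clusters. For summits of −log10 q 5 or more, the receptor windows held 21.9 per Mb with IL-4 and 6.06 without, and the rest of the clusters 14.3 and 6.41. Because that rest includes ends of other genes, these values do not compare receptor gene ends with the DNA between genes.

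In and beside short receptor genes, most summits sat on the gene itself. Strand was known for 995 receptor genes of at most 2000 bp, and 1 kb was added on each side. In the IL-4 library 189 of 234 summits (80.8%, 75.1 to 85.6) fell inside the gene, and in the untreated library 154 of 184 (83.7%, 77.5 to 88.7). The genes make up 32.8% of that DNA. Summits were 8.62 times as dense in the gene as in its flanks with IL-4 (6.22 to 11.9) and 10.5 times without (7.12 to 15.6). When genes were cut into 3 equal stretches, the densities from start to end were 170, 291 and 124 per Mb with IL-4 and 167, 207 and 102 per Mb without. The flank before the start held 23.1 and 20.1 per Mb, and the flank past the end 22.1 and 10.1. Counting all summits, the middle of the gene was the densest stretch in each library. Of summits of −log10 q 5 or more, the 3 stretches held 12, 28 and 8 with IL-4, but 8, 4 and 2 without, where the first was densest.

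Other short genes had a different profile. For 920 other protein-coding genes of at most 2000 bp, 46.9% of summits with IL-4 and 48.9% without fell inside the gene, which was 37.2% of the DNA. The gene was 1.5 and 1.62 times as dense as its flanks. Their densest stretch was the first, with 472 and 367 summits per Mb, and the flank before the start still held 259 and 199. In bins of 250 bp the receptor profile peaked between 250 and 500 bp from the start, at 370 per Mb with IL-4 and 269 per Mb without. Base composition of the gene bodies was not available here, so its part in the receptor profile was not tested.

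**Figure D2:**
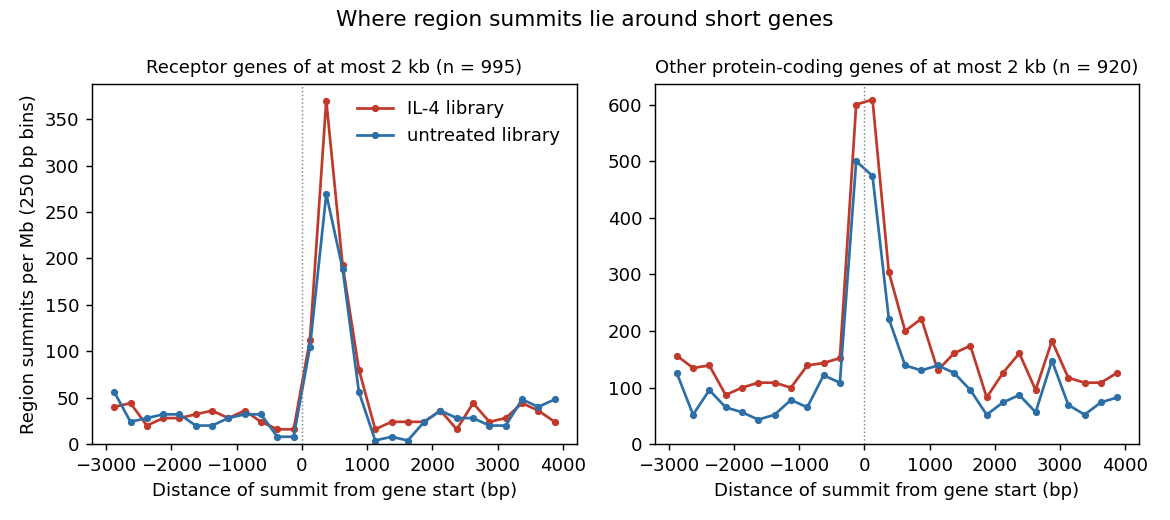
Density of region summits (y axis, summits per Mb in 250 bp bins) by distance from the gene start (x axis, bp, along the gene) for 995 receptor genes and 920 other protein-coding genes of at most 2000 bp, in the IL-4 library (red) and the untreated library (blue). The panels have different y scales, and the receptor curves peak within the gene, at 370 and 269 per Mb, where the curves of the other genes peak at the start.

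The pattern came from the Olfr genes. Olfr genes alone gave ratios of gene to flank density of 9.09 with IL-4 and 11.9 without. Short Vmn1r genes had 2 of 5 summits in the gene with IL-4 and 3 of 7 without, too few to place. The median length of the gene models was 951 bp for Olfr, 924 bp for Vmn1r and 24640 bp for Vmn2r. At most 2000 bp long were 86.3% of Olfr and 91.3% of Vmn1r models and none of the Vmn2r models. The start of such a short model may be the start of its coding exon and not of its transcript. Among receptor genes over 4000 bp with known strand, 91 were Olfr and 116 Vmn2r. Of these Olfr genes, 15 were marked at the start and 25 at the finish with IL-4, and 11 and 12 without. Of these Vmn2r genes, 6 were marked at the start and 8 at the finish with IL-4, and 7 and 11 without. Of 13157 other genes over 4000 bp, 71.2% were marked at the start and 28.0% at the finish with IL-4, and 59.1% and 16% without. Of 11 such Vmn1r genes, 3 were marked at the start and none at the finish with IL-4, and 1 and 1 without. The receptor counts are small and several differ by a few genes, so no order of their ends is read from them, whereas other genes were marked mostly at the start.

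Most gene models are short, and 1 region often lay within 1 kb of both ends. Both ends were marked in both libraries in 123 genes, and only 4 of these, Olfr460, Vmn2r129, Olfr544 and Olfr536, were longer than 2000 bp. The genes with the highest fold summed over ends and libraries were Olfr433, Olfr320, Olfr460, Olfr51 and Olfr317. Most marked genes had a single region. With IL-4, 228 genes had 1 region, 55 had 2 and 10 had 3 or more. Without IL-4 these numbers were 214, 32 and 5.

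The IL-4 regions of highest fold with no gene of another family at hand lay at 5 genes, all of them on chromosomes 3, 7 and 17. Vmn2r29, a vomeronasal receptor of the V2R type, carried a region at its start (chr7:7277670-7278545 in the IL-4 list) with a fold of 6.05 and 101 fragments with IL-4, and 5.43 and 80 fragments without. Vmn2r4 had a region near its start (chr3:64414266-64414636) with a fold of 5.93 and 99 fragments with IL-4, and 7.58 and 112 fragments without. Vmn2r2, in the same chromosome 3 array, had the widest of these before its start and inside the long Vmn2r1 model, 1685 bp with IL-4 (chr3:64171096-64172780) and 1802 bp without. Its fold was 5.48 with IL-4 and 5.06 without. These 3 V2R genes were among the 9 receptor genes past a fold of 3 in the untreated library. The other regions were in the odorant receptor array next to the MHC on chromosome 17. Olfr111 had a region across its start (chr17:37525456-37525999) with a fold of 5.69 with IL-4 and 3.02 without. Olfr110 had one directly before its start (chr17:37491954-37492430) with a fold of 5.10 with IL-4 and 2.75 without. A second Olfr111 region, before the same start (chr17:37524423-37524913), had folds of 4.09 and 2.68. In the untreated list, the highest folds with no outside gene after the 3 V2R regions were at Olfr433 (3.69), Vmn1r8 (3.35) and Olfr432 (3.08). The IL-4 regions overlapping them had folds of 3.32, 3.56 and 3.56.

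Heights at the summit were recovered from the deposited fold and p, and set side by side for the 189 IL-4 member regions that overlapped an untreated region. Each was paired with the untreated region it overlapped most. The same untreated region can stand in several pairs, as at Olfr318, Olfr609 and Olfr688. These heights are not scaled for depth, and the constant background, which grows with depth and fragment length, was 15.9 fragments with IL-4 and 13.9 without, a ratio of 1.14. The median height ratio of member regions was 1.21 (interquartile range 1.10 to 1.39). It was 1.26 over all shared autosomal regions and 1.55 at the ends of other genes. Of the 189, 126 (66.7%) lay above 1.14 and 12 (6.35%) below 1, where 12.1% of all shared regions and 3.76% at other gene ends were below 1. A ratio of 2 or more was reached by 2 (1.06%), against 5.41% of all shared regions and 12.3% at other gene ends. Olfr111 had 95 fragments with IL-4 and 44 without, a ratio of 2.16, and Olfr110 had 85 and 40, a ratio of 2.13. Next came Olfr316 with 56 and 29 fragments, Olfr549 with 54 and 29, and Olfr51 with 60 and 33. At the other end, Olfr1336 had 31 fragments with IL-4 and 39 without, a ratio of 0.795, and Vmn2r4 had a ratio of 0.884. Among regions with an untreated fold of 3 or more, the 9 receptor regions had a median ratio of 1.20 and the regions at other gene ends 1.63.

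**Figure D3:**
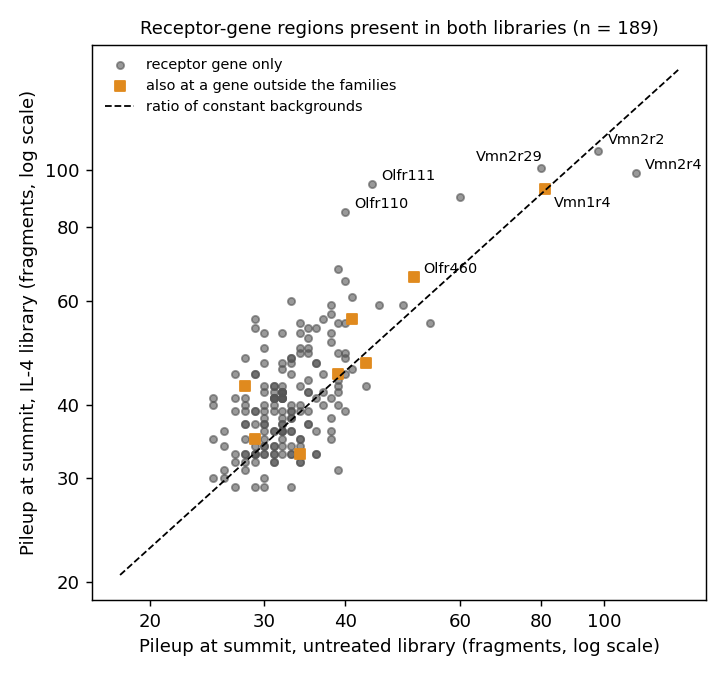
Fragments at the summit in the IL-4 library (y axis, log scale) against the untreated library (x axis, log scale) for the 189 IL-4 member regions that overlapped an untreated region. Squares are regions that are also within 1 kb of an end of a gene outside the families. The dashed line is the ratio of the constant backgrounds, 1.14, and Olfr111 and Olfr110 lie farthest above it while Vmn2r4 lies below it.

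Many member regions stood in 1 list alone. Of the IL-4 regions 189 (51.1%, 45.9 to 56.3) overlapped an untreated region, and of the untreated regions 189 (64.5%, 58.7 to 70.0) overlapped an IL-4 region. Over all autosomal regions these shares were 45.6% and 62.9%, and at other gene ends 61.0% and 87.3%. Shared member regions had a median fold of 2.37 with IL-4 and 2.21 without. Regions in 1 list alone had medians of 2.11 and 2.08, lower than the shared ones in each list. The strongest in the IL-4 list alone were at the odorant receptor gene Olfr329 (fold 3.20), Olfr644 (3.02), and Olfr373, Vmn1r54 and Olfr684 (2.85 each). Olfr684 had an untreated region 0.178 kb away. The strongest in the untreated list alone were at Olfr473 (2.88), Olfr1337 (2.82), Olfr970 (2.75), Vmn1r202 (2.68) and Vmn2r117 (2.62).

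Few member regions were shared with a gene outside the families. These were 11 with IL-4 and 7 without, and 3 and 2 of them were at a protein-coding gene. The strongest lay at the start of Vmn1r4, where an end of Nt5c3, which codes for a cytosolic nucleotidase, also lies (chr6:56923619-56924488). It had a fold of 5.57 with IL-4 and 5.50 without. A region between Olfr460 and Clec5a, which codes for a myeloid C-type lectin, had a fold of 3.97 with IL-4 and 3.49 without. It lay 755 bp from Clec5a with IL-4 and 840 bp without, and 955 bp from Olfr460 in both. The third, at Olfr94 and the ubiquitin-like gene Ubd, had a fold of 2.61 with IL-4 and overlapped an untreated region of 1.94. Beside pseudogenes, the strongest were at Olfr320 (3.38 with IL-4 and 2.82 without), Olfr658 (2.85 and 2.95) and Olfr571 (2.73 and 2.68). Without all regions that have an outside gene, 359 regions remained with IL-4 and 286 without. They marked 286 genes (19.7%) and 245 genes (16.9%), and the median folds stayed at 2.19 and 2.15.

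The marked genes were unevenly spread over the arrays. Receptor genes less than 1 Mb apart were joined into clusters, which gave 65 clusters, 15 of them single genes. Regions occurred in 42 clusters with IL-4 and 40 without, and 20 clusters had none in either list. The 21 clusters of 20 or more genes held 1221 genes. In them the share of genes marked ran between 0 and 62.5% with IL-4 (median 14.6%) and between 0 and 47.6% without (median 12.9%). The IL-4 library marked more genes in 11 of these clusters, fewer in 6 and as many in 4. Among these clusters the strongest IL-4 region ran between a fold of 2.08, at Olfr855, and 6.05, at Vmn2r29. Chromosome 7 held 28.5% of receptor genes and 38.1% of member regions with IL-4 and 43.7% without. Chromosome 2 held 19.7% of the genes but 3.51% and 7.51% of the regions, and chromosome 11 held 5.71% of the genes and 16.2% and 10.6% of the regions.

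The largest array was almost bare. On chromosome 2 the cluster of 222 genes between Olfr987 and Olfr1274 had 4 genes marked with IL-4 (1.8%, 0.493 to 4.55) and 13 without (5.86%, 3.15 to 9.81). The next cluster on that chromosome, with 37 genes between Olfr1275 and Olfr1318, had none in either list. Of 35 genes between Olfr24 and Olfr18 on chromosome 9, 1 was marked in each library, Olfr855. Among 63 genes between Olfr1417 and Olfr1505 on chromosome 19, 4 were marked with IL-4 and 3 without. Some pheromone receptor arrays were also sparsely marked. Of 86 genes between Vmn1r91 and Vmn1r183 on chromosome 7, none was marked with IL-4 and 1 without, Vmn1r151 at a fold of 2.21. Of 36 genes between Vmn2r90 and Vmn1r237 on chromosome 17, 2 were marked with IL-4 and none without.

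Other odorant receptor arrays were marked far more often. The cluster between Olfr543 and Olfr692 on chromosome 7 is the one that holds the class I receptors, the older type that resembles fish odorant receptors. It had 55 of 126 genes marked with IL-4 (43.7%, 34.8 to 52.8) and 58 without (46.0%, 37.1 to 55.1). Past a −log10 q of 5 the marked genes numbered 23 with IL-4 and 4 without. The strongest regions were at Olfr33 with IL-4 (3.20) and at Olfr658 without (2.95). Near the end of the same chromosome the cluster between Olfr522 and Olfr541 had 18 of 19 genes marked with IL-4 (94.7%) and 17 without (89.5%), by 25 regions in each. On chromosome 11 the cluster between Olfr30 and Olfr225 had 15 of 24 genes marked with IL-4 (62.5%, 40.6 to 81.2) and 10 without (41.7%, 22.1 to 63.4). A small chromosome 1 cluster between Olfr1416 and Olfr12 had all of its 8 genes marked with IL-4 and 6 without. The cluster between Olfr62 and Olfr1328 on chromosome 4 had 12 of 13 genes marked with IL-4 and 7 without.

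Clusters did not all lean one way between the libraries. The cluster between Olfr722 and Olfr1507 on chromosome 14 had 11 of 38 genes marked with IL-4 (28.9%, 15.4 to 45.9) and 3 without (7.89%, 1.66 to 21.4). The cluster between Olfr1396 and Olfr1380 on chromosome 11 had 9 of 19 genes marked with IL-4 and 3 without. The intervals overlapped in both. The chromosome 2 cluster of 222 genes leaned to the untreated library, as did, by a few genes, those between Olfr160 and Olfr986 on chromosome 9 (15 of 95 with IL-4 and 18 without) and between Olfr1370 and Vmn1r223 on chromosome 13 (7 of 48 and 9). Equal numbers were found between Olfr9 and Vmn2r87 on chromosome 10, with 8 of 62 genes in each library. With 1 library a group, none of these leanings could be tested.

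**Figure D4:**
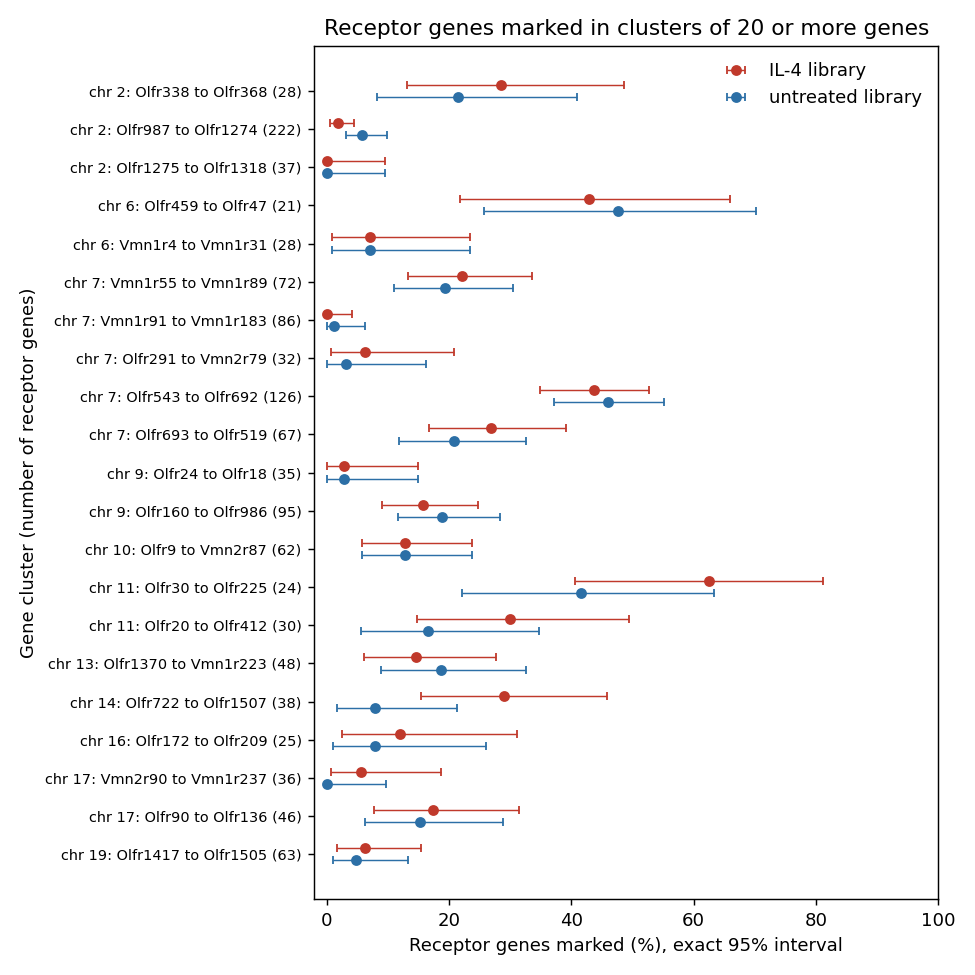
Share of receptor genes marked (x axis, percent) in the 21 clusters of 20 or more receptor genes (y axis, chromosome, first and last gene, number of genes), for the IL-4 library (red, upper point of each pair) and the untreated library (blue, lower point). Bars are exact 95% intervals for counting error, and the shares run between 0 and 62.5% with IL-4 and between 0 and 47.6% without.

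Marked receptor genes had more G+C before their start. RefSeq gives the 250 bases before the start of 1260 of the 1454 genes. Their median G+C was 34.8%, against 56.8% in other protein-coding genes. It was 39.6% in receptor genes marked in both libraries and 33.6% in those marked in neither. The share of receptor genes marked with IL-4 was 11.5% where G+C was under 30%, 9.38% between 30% and 35%, 21.9% between 35% and 40%, 33.1% between 40% and 45%, 64.4% between 45% and 50%, and 80.8% of 26 genes at 50% or more. Other genes in the same bins were marked at 28.0%, 24.2%, 43.4%, 54.5%, 68.8% and 85.3%. In the untreated library the receptor shares were 10.3%, 8.89%, 18.3%, 28.5%, 44.1% and 61.5%, and those of other genes 28.0%, 19.7%, 32.1%, 41.1%, 53.4% and 71.7%. In every bin below 45% G+C the receptor share was below that of other genes with intervals apart, in each library, and in the bins at 45% or more the intervals overlapped. Across the 21 clusters the median G+C and the share of genes marked had a Pearson r of 0.61 with IL-4 and 0.56 without, and a Spearman rho of 0.46 in each. Clusters share ancestry and their libraries, so these values are a description.

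**Figure D5:**
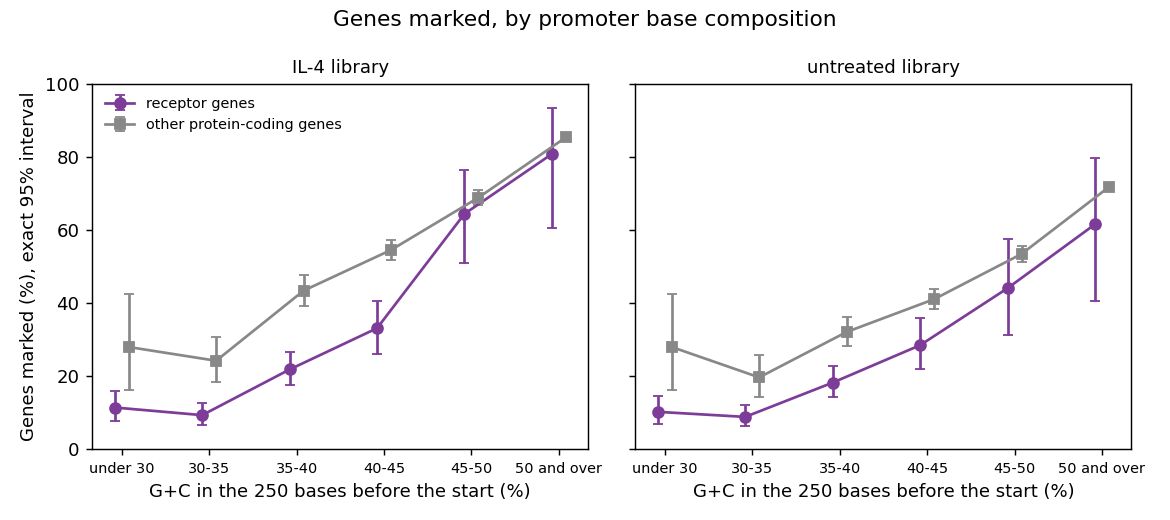
Share of genes marked (y axis, percent) by G+C in the 250 bases before the start (x axis, 6 bins, percent) for receptor genes (purple circles) and other protein-coding genes (grey squares), in the IL-4 library (left) and the untreated library (right). Bars are exact 95% intervals, and for both kinds of gene the shares are highest in the top bins, with receptor genes below other genes in the bins under 45%.

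Short motifs were counted on both strands of the same 250 bases, called promoters here although a short model may start at its coding exon. The homeodomain core TAATTA, known from promoters of odorant receptor genes, was found in 16.3% of receptor promoters and 4.40% of all promoters. The AP-1 motif TGANTCA stood in 13.7% and 6.28%, and the STAT6-like palindrome with a spacer of 4 bases in 10.2% and 5.43%. The PU.1-like GAGGAAG, after the ETS factor of macrophages, stood in 5.24% and 10.1%, and the E-box CACGTG in 2.14% and 6.71%. In receptor genes marked in both libraries the PU.1-like letters were found in 11.1%, and in those marked in neither in 4.14%. The other 4 motifs were less frequent in the genes marked in both than in those marked in neither: 10.5% against 17.0% for the homeodomain core, 10.5% against 14.9% for AP-1, 9.15% against 10.5% for the STAT6-like letters and 1.31% against 2.02% for the E-box. Those groups also differ in G+C, as given above, and so do receptor promoters and all promoters, with medians of 34.8% and 55.6%. The part of G+C in any of these differences was not tested. Vmn2r29, whose start is printed above, held 1 PU.1-like match.

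Near-identical copies could affect where reads were placed, and how multiply placed reads were handled is not given in the sources used here. A stretch of 50 bases identical to another gene's promoter was found in 25% of receptor promoters and 6.98% of others. The share was 13.8% for Olfr, 54.9% for Vmn1r and 62.9% for Vmn2r. Among Olfr genes, 27.9% with such a copy and 24.5% without one were marked with IL-4, and 22.5% and 19.7% in the untreated library. Among Vmn1r genes the shares were 4.42% and 6.45% with IL-4, and 4.42% and 7.53% in the untreated library. Among Vmn2r genes they were 11.0% and 9.30% with IL-4, and 16.4% and 6.98% in the untreated library. The intervals overlapped in every pair. Copies were sought in promoters only, not in the gene bodies.

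Of 12 well-studied receptor genes examined whatever their values, 3 were marked with IL-4 and 2 without, near the 20.2% and 17.3% of all receptor genes. Olfr544, the azelaic acid receptor, had 3 regions in each library with a highest fold of 2.45 with IL-4 and 2.38 without. Olfr558, a class I receptor for short-chain fatty acids, had 1 region of 2.47 with IL-4 and 1 of 2.15 without. Vmn1r49, a V1R type pheromone receptor, had a region of 1.90 with IL-4 and none without. Olfr78, a fatty acid receptor known from the carotid body and kidney, was unmarked. The region nearest to an end of it was 5.71 kb from that end with IL-4 and 5.99 kb without. A region at Olfr560, shared by both libraries, lay inside the long Olfr78 model. Olfr2, a receptor for octanal, was unmarked with the nearest region at 12.8 kb and 12.0 kb. Also unmarked in both were Olfr16, Olfr17, Olfr73, Olfr160, Vmn2r1, Vmn2r26 and Vmn2r116, whose nearest regions lay, from an end, between 3.75 and 24.7 kb away with IL-4 and between 6.80 and 24.7 kb without.

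The 1 kb window cut through no gap in the values. Between 800 and 1000 bp from a receptor gene end there were 25 regions with a median fold of 2.13 with IL-4 and 21 of 2.21 without. Between 1000 and 1200 bp, just outside, there were 20 regions of 2.23 with IL-4 and 20 of 2.31 without.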

How the data were processed

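Each library came with 1 deposited list of regions. Bowtie 0.12.8, MACS2 2.2.7.1, DiffBind and mm10 are named per the submitters' processing notes, without roles or settings. Whether peaks were called against a control is unknown here, and the settings are not stated. The smallest −log10 p was 2.03 in the IL-4 list and 2.00 in the untreated list. Member regions include some of low −log10 q, such as 0.794 at Olfr694 in the untreated library and 0.869 at Vmn1r88 with IL-4. The deposited fold is a ratio of the authors' summit height to their background, the deposited −log10 p and q are against the same background, and the deposited score was 10 times −log10 p, cut to a whole number. Depth in reads is not stated. Fold and p gave back heights that were whole within 0.05 for 99.96% of IL-4 regions and 99.95% of untreated regions.

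Regions were matched to ends of RefSeq genes (GRCm38.p6). Regions sharing at least 1 bp were called shared. Intervals are exact 95% Clopper-Pearson intervals, and those of ratios come from Poisson counts on the log scale. The members, lists and tests were chosen with earlier results of these data known. Genes were named by rule: in each list the 6 regions of highest fold without and with an outside gene, the 5 strongest in 1 list alone, the strongest of each large cluster, the 5 highest of those marked at both ends, a fixed set of well-studied receptors, and an olfactory signalling list. Not every gene picked by these rules is described, and other genes and clusters were chosen after their values were seen. Python 3.11.15, numpy 2.4.6, pandas 2.3.3, scipy 1.17.1 and matplotlib 3.10.9 were used, and the scripts were tested on simulated data.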

Additional observations from a re-analysis of the deposited data

How the results depend on the processing

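A recomputed count or ratio was called moved when it differed from the reported one by over 1.5 times, and a share or median fold when it left the reported value's 95% interval. Of 82 recomputed values, 30 moved by this rule, 2 turned round and 50 did neither. Some of the 50 could not move. At equal list lengths the untreated list was not cut, so its regions, genes and median fold stayed as they were. The number of clusters does not depend on regions, so leaving out regions beside outside genes could not change it. The 2 that turned round were the ratio of receptor genes marked, IL-4 over untreated, 0.873 at equal list lengths and 0.966 with a 5 kb window, against 1.17. At a −log10 q of at least 5 there were 111 regions and 98 genes with IL-4 and 34 regions and 32 genes without, a gene ratio of 3.06, shares of 24.3% and 79.4% shared, and median folds of 2.70 and 2.75. At a fold of at least 3 there were 29 regions and 27 genes with IL-4 and 9 regions and 9 genes without, a gene ratio of 3.0, shares of 31.0% and 100%, and median folds of 3.38 and 3.69. These stricter limits test fewer regions by construction. At equal list lengths 57.0% of IL-4 and 50.9% of untreated regions were shared, and the IL-4 median fold was 2.37. Within 5 kb there were 844 and 743 regions and 510 and 528 genes, and 53.6% of untreated regions were shared. A reciprocal overlap of 50% left 36.8% and 46.1% shared, and a partner within 1 kb gave 61.1% and 71.7%. The cause of the other shifts was not tested. Within those limits, a 500 bp window gave 297 and 233 regions and 260 and 211 genes, and equal list lengths left 263 IL-4 regions at 219 genes. Summits in the window and leaving out regions beside outside genes also stayed within them. No paired analysis was possible because each group held 1 library, and no replicate could be left out. Weak regions near the lists' limit are the depth-limited ones: a gene unmarked here is not shown to lack signal.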

Other observations

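Genes of olfactory signalling were marked no more often than protein-coding genes in general. Of 28 genes of olfactory signalling and receptor choice, 20 were marked with IL-4 and 12 without, against 73.7% and 60.4% of all protein-coding genes. With regions of −log10 q 5 or more the numbers were 11 and 6 of 28, where 54.1% and 34.6% of all genes were marked, so these counts lie below the share of all genes as well. Cbx5, which codes for the heterochromatin protein HP1 alpha, had 6.95 with IL-4 and 6.30 without, in a region that also reached an end of Hnrnpa1. Atf5, a transcription factor of the receptor feedback signal, had 6.68 and 6.32, in a region also at an end of Nup62. Gnai2, the G protein subunit behind V1R receptors, had 6.42 and 6.06, and Ric8b, which folds the olfactory G protein, had 5.57 and 4.63. Cnga4, a subunit of the olfactory cyclic nucleotide channel, had 9.43 with IL-4 and 7.66 without, in a region that also lies at an end of Fam160a2. Gng8 came next below Ric8b in the IL-4 library, with 4.03, and had 2.62 without. Kdm1a, the histone demethylase needed for the first receptor choice, had 3.79 and 1.94. Lbr, the lamin receptor whose loss lets receptor clusters gather in olfactory neurons, had 3.74 and 2.68. Markers of the sensory neurons were split. Of 9 olfactory sensory neuron markers 6 were marked with IL-4 and 3 without. Stoml3 had 2.31 with IL-4 and 2.55 without, Adcy3 had 1.81 and 2.01, and Omp (2.04), Cngb1 (2.53) and Rtp2 (2.25) were marked with IL-4 only. Gnal, Gng13 and Rtp1 were unmarked in both. Of 4 vomeronasal neuron markers, Gng8, Gnao1 and Gnai2 were marked in both libraries and Trpc2 in neither. Also unmarked in both were Reep1, Ebf3, Slc24a4 and Emx2.

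Other chemoreceptor families were mixed. They are set against 73.7% of all protein-coding genes with IL-4 and 60.4% without. Of 15 Taar genes, the trace amine receptors, 7 were marked with IL-4 (46.7%, 21.3 to 73.4) and 2 without (13.3%, 1.66 to 40.5). Of 35 Tas2r genes, the bitter receptors, 1 was marked in each library. Of 7 Fpr genes 1 was marked in each, and of 3 Tas1r genes 2 in each, too few genes to place. Receptor family genes that are not protein-coding, mostly pseudogenes, were marked at 13.4% of 581 with IL-4 and 12.6% without. On the X chromosome 7 receptor genes were left out of the counts above, of which Vmn2r121 had 1 region of 2.67 with IL-4 and 1 of 3.08 without.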
